A study of Rattus norvegicus with 14 samples.

Results

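The genes described here are the collagens and the genes that assemble, crosslink, cut and cover them. They were chosen by name: every gene on the array with a collagen chain symbol, which gave 41 genes, and 14 others for fibronectin, osteonectin, periostin, lysyl oxidases, small leucine-rich proteoglycans, matrix metalloproteinases and their inhibitors. Together they are 55 of 26115 gene names on the array. The measured values of 53 passed the filter on dim probes, and those of Col8a2 and Col9a3 did not. The array carried 75 probes for the 55 genes, and each gene is represented by its brightest probe.

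The samples were plantaris muscles, a fast hindlimb muscle, of Wistar rats, with 1 array for each of 14 muscles. The 4 control rats ate a diet holding 1000 IU vitamin D per kg. The 6 depletion rats were fed a vitamin D depletion diet, and the 4 repletion rats were depleted first and then given vitamin D again. The vitamin D content of these diets, their duration and the age and sex of the rats are not stated in the labels. For depletion replicate 1 the title and the diet entry disagree, since the latter names the repletion regime. It was kept by its title. Medians of the members and several differences of single genes are also given without it, but the counts of genes by role are not. A level below is a log2 signal with the 75th percentile of its own array set to 0, and a difference is in log2 units with its standard error.

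Muscle fibres are held in a scaffold of collagen. Fibril-forming collagens I, III and V carry the tension of the tissue, collagen VI forms microfibrils around each fibre, and collagen IV builds the basement membrane on its surface. Fibroblasts secrete most of the fibrillar chains, procollagen is trimmed outside the cell, lysyl oxidase crosslinks the fibrils, and metalloproteinases and their TIMP inhibitors set how fast the matrix is turned over. Vitamin D acts through a nuclear receptor and is known for its part in mineral balance.

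The arrays lay on 5 slides, and all comparisons below hold the slide constant. From 82.8% to 88.1% of the spots per array were well above background, and no spot was saturated. The samples carried markers of skeletal muscle. The 8 markers listed for fast fibres, which include Acta1 and Ckm, summed to between 1578 and 2175 times the 75th percentile signal. No slow fibre markers were set beside them. Fibroblast markers summed to between 23.2 and 51.7, tendon markers to between 18.1 and 71.3, and 5 of 7 cartilage and bone markers, all that passed the filter, to between 0.549 and 1.24. Depletion replicate 1 stood apart in the neutrophil markers, at 1.61 against 0.162 to 0.540 on the other 13 arrays. In S100a8 its level was -0.56 against -5.38 to -2.84 on the others. Its macrophage markers summed to 4.44, against 2.12 to 4.05 on the others. Repletion replicate 2 had a Schwann cell sum of 30.2 against at most 5.65 elsewhere. Because whole muscle was measured, fewer cells of a type and less RNA per cell cannot be told apart.

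No member passed the threshold of adjusted p 0.05 in any comparison of diets. In the limma fit, 0 of 53 members and 0% of all probes were called in depletion against control, in repletion against depletion and in repletion against control. At an unadjusted p under 0.05, 1 member of 53 (1.89%) was found in depletion against control, where 4.82% of all 26391 probes lay. The counts were 2 members (3.77%) against 3.47% of all probes in repletion against depletion, and 2 members (3.77%) against 1.99% in repletion against control. No member had groups that failed to overlap, against 0.856%, 0.307% and 1.16% of all probes in the same order. The lowest adjusted p over all probes was 0.832 in depletion against control.

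The medians were close to those of all probes. In depletion against control, the median difference of the 53 members was -0.08, beside -0.02 over all probes, and 41.5% of the members had a difference above 0 against 45.3% of all probes. In repletion against depletion it was 0.12 beside 0.04, with 67.9% above 0 against 58.9%. Without depletion replicate 1 that median was 0.04 beside 0.03, and with the array counted as repletion it was -0.0055 beside 0.02. The median difference for repletion against control was 0.04 beside 0.01, with 58.5% above 0 against 53.6%. Over all 53 members the differences ran from -0.61 (Col22a1) to 0.82 (Timp1) in depletion against control, from -0.53 (Timp1) to 0.59 (Lum) in repletion against depletion and from -0.76 (Col25a1, which rests on 1 array not well above background) to 0.63 (Col7a1 and Col20a1) in repletion against control. All 3 comparisons share arrays, so their counts are not independent. Leaving out depletion replicate 1 gave 0.10 for the depletion median, control replicate 1 gave 0.03, and the whole of slide 1, which holds both, gave 0.15, so the sign of that median rested on single arrays.

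The spread among arrays of 1 diet was wider in the members than in the array's probes at the median. The median standard deviation within a diet was 0.577 for the members against 0.343 for all probes, and with the slide held constant as well it was 0.496 against 0.243. With both held constant it was 1.05 in Col1a1 and 1.15 in Postn. Col2a1 had 1.33 within a diet and 0.393 with the slide also held constant. Dcn had 0.217 and Timp2 0.237. Control replicate 1 held the highest value of the 14 arrays for 20 of 53 members (37.7%, against 4.16% of all probes). Depletion replicate 1 held the lowest for 19 members (35.8%, against 19.3%) and the highest for 6, and depletion replicate 3 held the lowest for 10 (18.9%, against 7.38%).

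**Figure D1:**
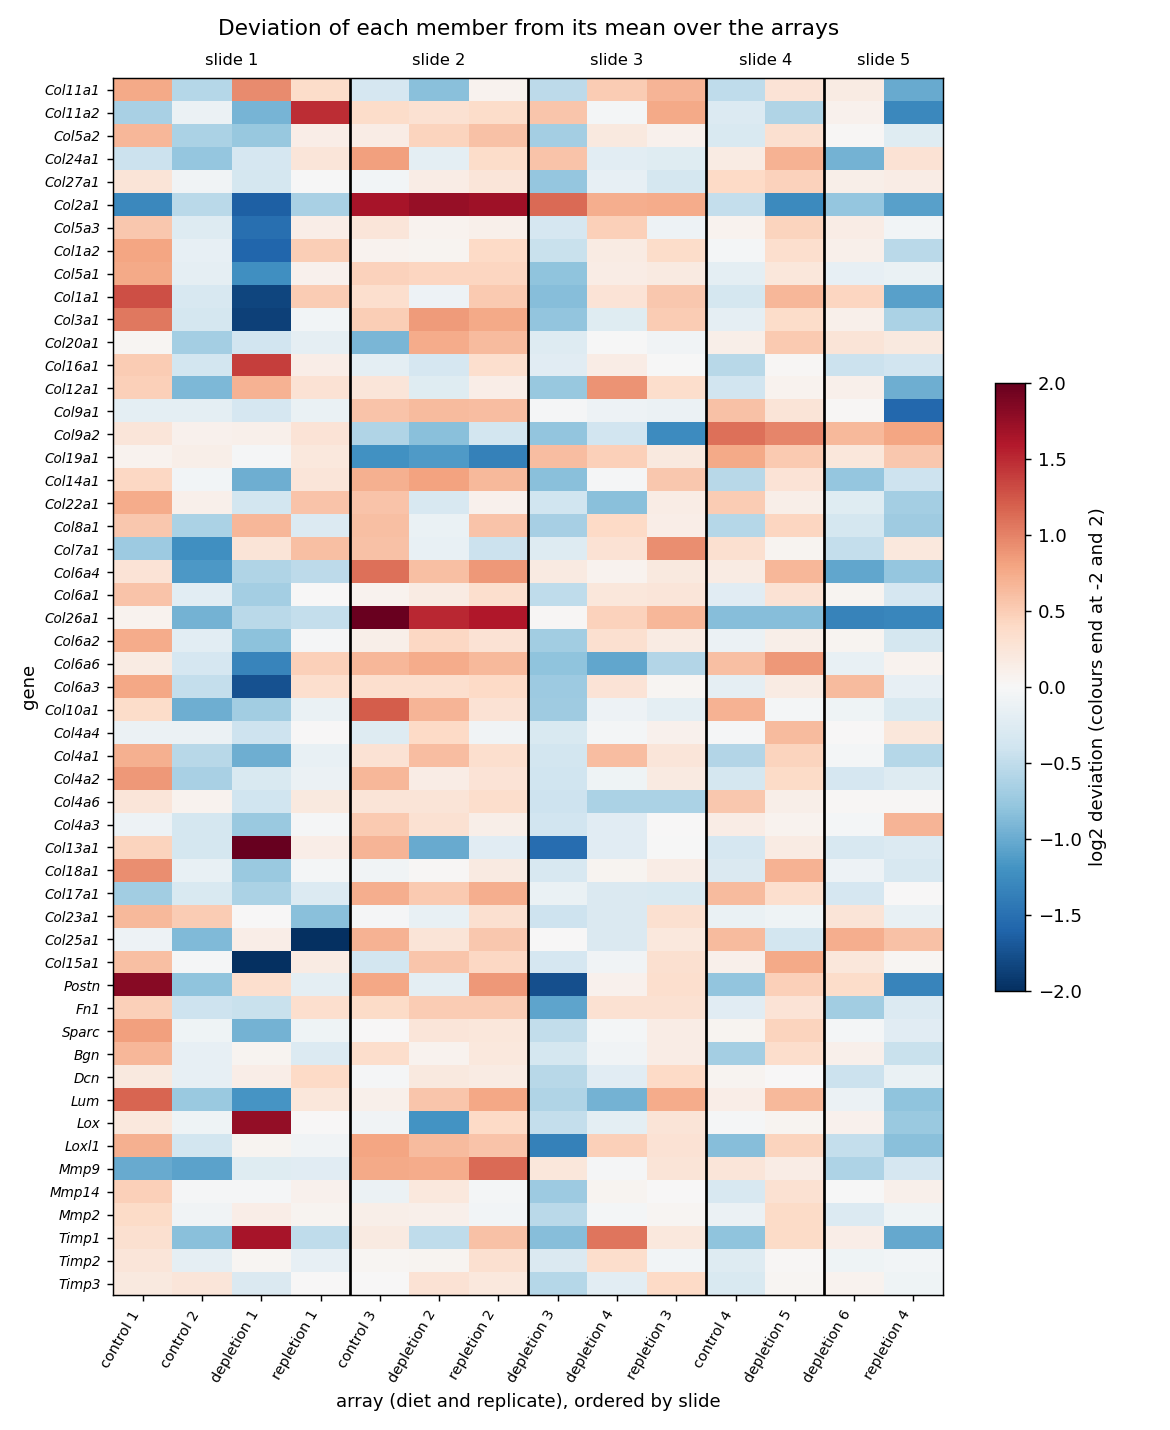
Each row is 1 of 53 members and each column 1 array, ordered by slide; colour gives the log2 deviation from that gene's mean over the 14 arrays. Col1a1, Col1a2, Col2a1, Col3a1, Col5a3, Col6a3 and Col15a1 are among the dark blue rows on depletion replicate 1. Col13a1, Lox, Timp1, Col16a1 and Col11a1 are among the red rows there. Most rows are red on control replicate 1, and Col2a1, Col19a1 and Col26a1 follow the slide.

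The chains of collagens I, III and V spread widely between single rats. Col1a1, which with Col1a2 makes collagen I, the main fibril of muscle and tendon, stood at 2.86, 1.25, 1.91 and 1.23 on the control arrays, between -0.27 and 2.24 with a median of 1.66 on the depletion arrays, and at 2.08, 2.10, 2.11 and 0.49 on the repletion arrays. Col1a2 stood at 4.37, 3.42, 3.66 and 3.54 in controls, between 2.00 and 3.92 with a median of 3.66 in depletion, and at 4.07, 3.99, 3.95 and 3.04 in repletion. The groups overlapped for both chains, and the same arrays were at the ends: depletion replicate 1 lowest, control replicate 1 highest and repletion replicate 4 lowest of its group. The depletion difference from control was -0.49 ± 0.66 (SE) for Col1a1, with a 95% interval from -1.98 to 0.99, and -0.44 ± 0.44 for Col1a2. Within slides the Col1a1 difference was -2.32 on slide 1, -0.44 on slide 2 and 1.02 on slide 4. Without depletion replicate 1 the differences turned to 0.29 and 0.18. The dimmer Col1a1 probe gave a depletion difference of -0.57 ± 0.38 with all arrays, depletion replicate 1 included. It shares 43 of 60 bases with the dimmer Col5a2 probe. Among members with another measured probe, 9 of 17 such probes shared the sign of the brightest in depletion against control. The counts were 12 of 17 in repletion against depletion and 15 of 17 in repletion against control. On depletion replicate 1 the 9 measured fibroblast markers summed to 23.2, the lowest of the 14 arrays. Its 8 tendon markers summed to 71.3, the highest, with repletion replicate 1 at 70.4, beside the neutrophil and macrophage sums given above. Control replicate 1, the highest in Col1a1, had a fibroblast sum of 31.3. The highest fibroblast sum, 51.7, was that of control replicate 2, at 1.25 in Col1a1. The part of these cells in the result was not tested.

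Col3a1, the chain of collagen III, which accompanies collagen I in distensible tissue, was at 3.58, 2.18, 3.02 and 2.34 in controls, from 0.66 to 3.37 with a median of 2.45 in depletion, and at 2.48, 3.28, 3.04 and 1.90 in repletion. Col5a1, a chain of collagen V, which starts and limits fibril growth, was at -0.94, -1.88, -1.24 and -1.90, then from -2.93 to -1.27 with a median of -1.71, and at -1.61, -1.28, -1.53 and -1.83 in repletion. Depletion replicate 1 was again the lowest array for both. The depletion difference for Col3a1 was -0.55 ± 0.53 and became 0.12 without that array. Of the 11 fibrillar genes, 4 had a difference above 0 in depletion against control and 7 below, with a median of -0.32. In repletion against depletion, 10 of 11 were above 0 (all probes, 58.9%) with a median of 0.36, and none reached an unadjusted p of 0.05. That comparison uses the same 6 depletion arrays: the Col1a1 difference was 0.42 ± 0.61 with all arrays, -0.08 without depletion replicate 1 and -0.32 with it counted as repletion.

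**Figure D2:**
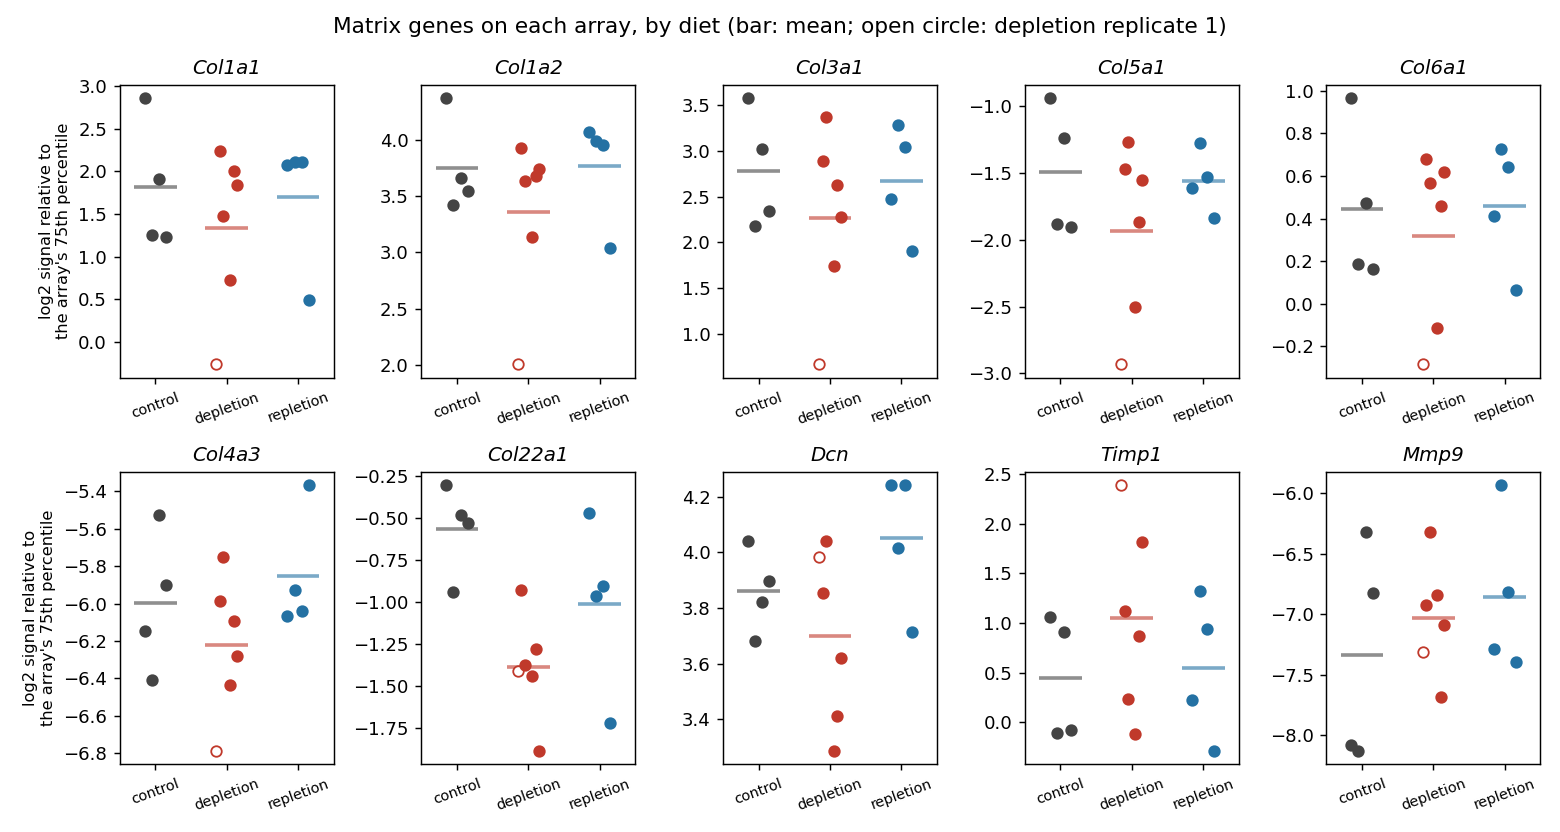
Each point is 1 array, its height the log2 signal relative to the array's 75th percentile, and each bar the mean of a diet group (4, 6 and 4 arrays). The open circle is depletion replicate 1, the lowest point of Col1a1, Col1a2, Col3a1, Col5a1, Col6a1 and Col4a3 and the highest of Timp1; the diet groups overlap for every gene.

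Fibril-associated collagens sit on the surface of fibrils and link them to other matrix. Col22a1, known from the junction of muscle and tendon, had the smallest p of all members in depletion against control. Its levels were -0.30, -0.94, -0.48 and -0.53 in controls, from -1.89 to -0.93 with a median of -1.39 in depletion, and -0.47, -0.96, -0.90 and -1.72 in repletion. The control and depletion groups overlapped only through control replicate 2 and depletion replicate 5. The difference was -0.61 ± 0.25 (fold 0.654, interval 0.446 to 0.960), with an unadjusted p of 0.0335 and an adjusted p of 0.832 in limma. It was below 0 within each slide that held both diets, at -0.79, -0.89 and -0.40 on slides 1, 2 and 4. Repletion lay 0.42 ± 0.23 (SE) above depletion (0.27 without repletion replicate 1, 0.28 without repletion replicate 3 and 0.66 without repletion replicate 4 or depletion replicate 6), with values of 0.94, 0.41, 0.76 and -0.44 within slides 1, 2, 3 and 5.

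Col14a1, which binds collagen I fibrils, was at 0.90, 0.43, 1.20 and -0.08 in controls, from -0.49 to 1.30 with a median of 0.09 in depletion, and at 0.72, 1.13, 1.03 and 0.07 in repletion; repletion was 0.50 ± 0.31 above depletion, 0.27 without depletion replicate 1 and 0.30 without repletion replicate 3. Col16a1 was at 0.06, -0.82, -0.65 and -1.01, from -0.88 to 0.93 with a median of -0.56, and at -0.32, -0.11, -0.45 and -0.83. Its depletion difference of 0.55 ± 0.30 included depletion replicate 1, the highest array, and was 0.19 without it. Col20a1 was at -4.24, -4.97, -5.20 and -4.18 in controls, from -4.67 to -3.55 with a median of -4.17, and at -4.48, -3.66, -4.36 and -4.09, with differences from control of 0.58 ± 0.28 in depletion and 0.63 ± 0.31 in repletion. Both were 0.16 without control replicate 3, and the depletion difference was -0.06, 1.65 and 0.41 within slides 1, 2 and 4. The diet groups of these genes overlapped. Of the 8 measured fibril-associated genes, 4 were above 0 and 4 below in depletion against control.

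**Figure D3:**
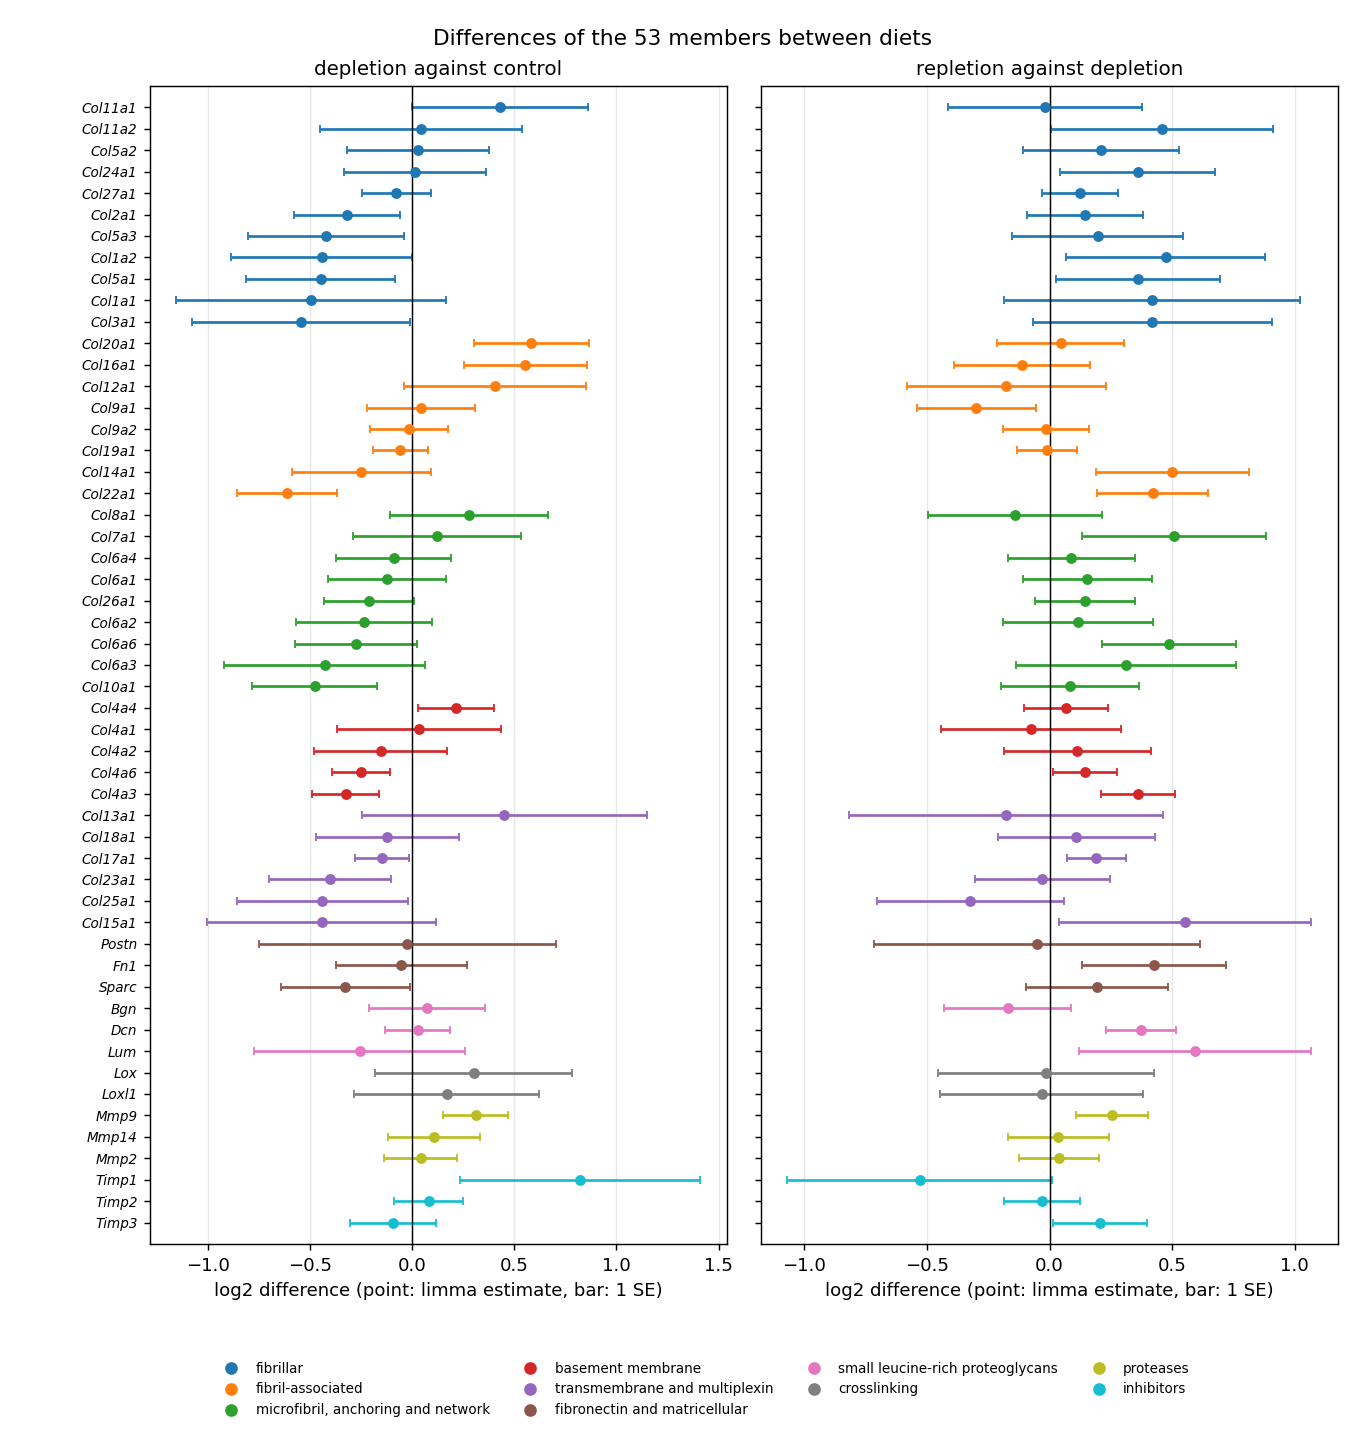
Each point is the limma estimate of the log2 difference for 1 of 53 members with a bar of 1 standard error, for depletion against control (left) and repletion against depletion (right), coloured by role. No member passed the adjusted threshold; among the fibrillar genes 7 of 11 lie below 0 on the left and 10 of 11 above it on the right, and the comparisons share the depletion arrays.

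Collagen VI forms beaded microfibrils around muscle fibres. Col6a1 was at 0.97, 0.18, 0.47 and 0.16 in controls, from -0.29 to 0.68 with a median of 0.51 in depletion, and at 0.41, 0.73, 0.64 and 0.06 in repletion. Col6a3 was at -4.72, -5.96, -5.16 and -5.66, from -7.24 to -4.86 with a median of -5.28, and at -5.15, -5.09, -5.45 and -5.66. Depletion replicate 1 was the lowest array for both, and depletion replicate 3 was the next lowest. Col6a6, a later-described chain of the same collagen, was at -5.66, -6.16, -5.16 and -5.21, from -7.15 to -4.95 with a median of -6.29, and at -5.35, -5.17, -6.40 and -5.74. Repletion was 0.49 ± 0.27 above depletion for the brighter Col6a6 probe and 0.52 ± 0.22 for the dimmer one. The former was 0.20 without depletion replicate 1 and 0.24 without repletion replicate 1. Col7a1, the chain of anchoring fibrils, was at -2.36, -2.86, -1.06 and -1.31, from -2.12 to -1.35 with a median of -1.69, and at -1.03, -2.06, -0.70 and -1.42. Its repletion difference from control was 0.63 ± 0.45, with 1.58 within slide 1 and -1.004 within slide 2, and it ran from 0.29 to 1.22 as single arrays of the control and repletion groups were left out. Of the 9 measured genes of the microfibril, anchoring and network collagens, 2 were above 0 in depletion against control (median -0.21) and 8 in repletion against depletion (median 0.15), and none reached an unadjusted p of 0.05.

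Collagen IV chains assemble into the basement membrane network. Col4a1 was at 2.89, 1.63, 2.48 and 1.59 in controls, from 1.22 to 2.81 with a median of 2.39 in depletion, and at 2.04, 2.51, 2.43 and 1.61 in repletion. Its partner Col4a2 was at -1.01, -2.53, -1.21 and -2.23, from -2.28 to -1.49 with a median of -2.07, and at -1.997, -1.60, -1.70 and -2.13. The diet groups overlapped almost fully for both. Col4a3, a chain of a collagen IV network best known from kidney, was at -6.15, -6.41, -5.53 and -5.90, from -6.79 to -5.75 with a median of -6.19, and at -6.07, -5.93, -6.04 and -5.37. The depletion difference was -0.33 ± 0.16 and the repletion difference from depletion 0.36 ± 0.15 (limma, unadjusted p 0.0390, adjusted p 0.933). Within slides 1, 2, 3 and 5 the latter was 0.72, -0.18, 0.32 and 0.73. Over the other processing settings it was as low as 0.0035, and the depletion difference came as near 0 as -0.10. Col4a4, which joins the same network, was at -5.55, -5.56, -5.70 and -5.46, from -5.85 to -4.81 with a median of -5.45, and at -5.43, -5.50, -5.35 and -5.22. Its repletion difference from control was 0.28 ± 0.20, and 0.18 without control replicate 4 or depletion replicate 5. Col4a6 was at -2.99, -3.17, -2.98 and -2.70, from -3.87 to -2.97 with a median of -3.42, and at -3.03, -2.89, -3.86 and -3.21, with a depletion difference of -0.25 ± 0.14, or -0.11 without depletion replicate 1. The dimmer Col4a6 probe gave a depletion difference of 0.02 ± 0.16. Of the 5 measured collagen IV genes, 2 had a depletion difference above 0, and for 4 the repletion estimate lay above that of depletion.

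The repeat that lets collagen chains wind into a triple helix, a glycine in each triplet of residues, can be read in some probes. A glycine codon every 9 bases over the whole probe was present in 2 of 58 collagen probes and in 9 of 30367 probes of the array. Both belong to collagen IV, and the glycine codons are in capitals. They lie in rn4 at chr16:83146135-83146194 (Col4a1, the dimmer probe) and chrX:37482127-37482186 (Col4a6, the probe used), both on the plus strand.
Col4a1: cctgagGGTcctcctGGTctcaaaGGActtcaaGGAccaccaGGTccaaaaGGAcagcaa
Col4a6: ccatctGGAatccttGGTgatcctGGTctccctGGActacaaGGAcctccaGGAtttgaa
The 2 probes share 31 of 60 bases.

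Col4a1 and Col4a2 lie head to head. In the RefSeq annotation of GRCr8 their starts are 76 bases apart on chromosome 16, and those of Col4a3 and Col4a4 are 412 apart on chromosome 9. The stretch between the first pair, chr16:84885521-84885596 on the plus strand, is shown because it is the shorter. Its part in the levels of the 2 genes was not tested. The GC box, GGGCGG on either strand, is in capitals.
Col4a2 to Col4a1: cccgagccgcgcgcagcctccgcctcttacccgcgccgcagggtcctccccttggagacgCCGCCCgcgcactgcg
Promoter windows were matched for 39 of 55 members, in 41 windows. The GC box was present in 22 of those 41 (53.7%) and in 30.5% of all promoter windows of the same length. CCAAT and TATAAA, on either strand, were counted as well. CCAAT was in 26.8% of the member windows against 34% of all, and TATAAA in 12.2% against 12.9%. Windows of 2 pairs of members overlap and some members have more than 1 window, so the member share counts some sequence more than once. A match is a description of the letters in the window.

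Transmembrane collagens and the multiplexins include Col15a1, which sits beside the basement membrane of muscle and vessels. Of the 6 measured genes, 1 had a difference above 0 in depletion against control and 5 below. Col25a1, a transmembrane collagen, was at -7.88, -8.66, -7.08 and -7.15 in controls, from -8.15 to -7.06 with a median of -7.71 in depletion, and at -9.93, -7.24, -7.57 and -7.19 in repletion, with a repletion difference from control of -0.76 ± 0.46. It was well above background on only 2 arrays of each diet. Repletion replicate 1, at -9.93, was not among them, and without it the difference was -0.039.

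Fibronectin and the matricellular proteins organise the matrix around cells. Fn1 was at 2.20, 1.30, 2.10 and 1.49 in controls, from 0.67 to 2.23 with a median of 1.63 in depletion, and at 2.05, 2.22, 2.02 and 1.45 in repletion. Sparc, which encodes the collagen-binding protein osteonectin, was at 4.94, 4.04, 4.14 and 4.18, from 3.17 to 4.57 with a median of 4.08, and at 4.04, 4.35, 4.27 and 3.89. Postn, encoding periostin, was at -0.74, -3.37, -1.78 and -3.34, from -4.31 to -2.07 with a median of -2.35, and at -2.75, -1.68, -2.22 and -3.87. The groups overlapped for all 3, and the control arrays alone spanned most of the range of Postn.

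Small leucine-rich proteoglycans bind collagen fibrils and limit their width. Dcn, decorin, had the smallest p of the members in repletion against depletion. Its levels were 4.04, 3.68, 3.82 and 3.90 in controls, from 3.29 to 4.04 with a median of 3.74 in depletion, and 4.24, 4.01, 4.24 and 3.71 in repletion. Repletion was 0.37 ± 0.14 above depletion (fold 1.29, interval 1.03 to 1.62, limma unadjusted p 0.0285, adjusted p 0.933, and 0.20 without repletion replicate 3) and 0.40 ± 0.17 above control (unadjusted p 0.0445, adjusted 1.00). Against depletion it was 0.26, -0.03, 0.79 and 0.30 within slides 1, 2, 3 and 5. The groups overlapped, since repletion replicate 4 lay below several arrays of both other diets. Repletion replicate 2, at 4.01, also lay below control replicate 1 and depletion replicate 2, both at 4.04. Lum, lumican, was at -1.19, -3.09, -2.25 and -2.21, from -3.54 to -1.70 with a median of -2.71, and at -2.13, -1.57, -1.61 and -3.15. Bgn, biglycan, was at 4.14, 3.31, 3.83 and 2.79, from 3.13 to 3.83 with a median of 3.53, and at 3.20, 3.69, 3.62 and 3.03.

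Lox, the enzyme that crosslinks collagen and elastin, was at -3.37, -3.66, -3.65 and -3.60 in controls, from -4.78 to -1.82 with a median of -3.65 in depletion, and at -3.57, -3.18, -3.32 and -4.32 in repletion. The highest value was that of depletion replicate 1, and the other 13 arrays lay at -3.18 or below.

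Among the proteases, Mmp2, a gelatinase, was at 2.25, 1.79, 1.98 and 1.74 in controls, from 1.33 to 2.24 with a median of 1.89 in depletion, and at 1.91, 1.82, 1.91 and 1.78 in repletion. Mmp14, the membrane-bound protease that activates it, was at 0.64, 0.13, 0.04 and -0.16, from -0.56 to 0.47 with a median of 0.19, and at 0.24, 0.13, 0.17 and 0.26. Neither separated the diets. Mmp9, the gelatinase of neutrophils and macrophages, was at -8.08, -8.13, -6.32 and -6.83, from -7.69 to -6.32 with a median of -7.01, and at -7.29, -5.93, -6.81 and -7.40. It was well above background on 2 of 4 control, 5 of 6 depletion and 3 of 4 repletion arrays, and it followed the slide. Repletion was 0.57 ± 0.17 above control (fold 1.48, limma unadjusted p 0.00924, adjusted p 1.00), at 0.39 within slide 2, and depletion was 0.31 ± 0.16 above control, or 0.14 without depletion replicate 1. The control arrays and the repletion array of slide 1 were not well above background, so no difference is given within that slide, and without slide 1 the differences were 0.27 and -0.011. With a model-based background correction (normexp) these differences were -0.24 and -0.22.

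The TIMP inhibitors block these proteases. Timp1 was at 1.06, -0.10, 0.91 and -0.07 in controls, from -0.12 to 2.39 with a median of 0.99 in depletion, and at 0.23, 1.32, 0.94 and -0.29 in repletion. The highest value was that of depletion replicate 1. The depletion difference was 0.82 ± 0.59, 0.29 without depletion replicate 1 and 1.28 without depletion replicate 2, and within slides it was 1.91, -0.67 and 1.19. Timp2 was at 4.23, 3.81, 4.02 and 3.73, from 3.70 to 4.34 with a median of 4.02, and at 3.83, 4.31, 3.93 and 3.93. Timp3 was at -2.32, -2.27, -2.50 and -2.81, from -3.08 to -2.22 with a median of -2.60, and at -2.51, -2.30, -2.11 and -2.61.

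Across the 14 arrays, 10 pairs of collagen genes were tested, 8 of chains of the same collagen type and 2 of different fibrillar collagens. An adjusted permutation p under 0.05 was found for 6 of the 8 and for both others. Pairs of other genes on these arrays were not tested, so these counts cannot be read as particular to chain partners. Pearson's r was 0.961 between Col1a1 and Col1a2 (Spearman's rho 0.938), 0.963 between Col6a1 and Col6a2 (rho 0.921) and 0.900 between Col5a1 and Col5a2 (rho 0.925), each with a permutation p of 1e-05, the smallest that 100000 permutations can give, and an adjusted p of 2.5e-05; the rho p-values were 1e-05, 1e-05 and 2e-05. Without the 2 arrays farthest from the median of the first gene, r was 0.949, 0.922 and 0.865. Across different fibrillar collagens, Col1a1 with Col3a1 had r 0.878 and rho 0.798 (permutation p 6e-05 and 0.00119, adjusted 0.0001 and 0.00238), and Col3a1 with Col5a2 had r 0.880 and rho 0.864 (p 1e-05 and 0.00017, adjusted 2.5e-05 and 0.000425). Without 2 arrays they were 0.735 and 0.841.

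Other pairs were looser. For Col6a1 with Col6a3, r was 0.871 and rho 0.719 (permutation p 3e-05 and 0.00538, adjusted 6e-05 and 0.00769), and 0.752 without 2 arrays. With normexp this call was lost (r 0.386, adjusted permutation p 0.219). Col5a1 with Col5a3 had r 0.849 and rho 0.710 (p 0.00018 and 0.00616, adjusted 0.000257 and 0.0077), and r 0.578 without 2 arrays. Col4a1 with Col4a2 had r 0.765 and rho 0.763 (p 0.00164 and 0.00238, adjusted 0.00205 and 0.00397), 0.777 without 2 arrays, and 0.755 with an adjusted p of 0.0618 on values centred within each slide. Col9a1 with Col9a2, chains of a cartilage collagen, had r -0.251 and rho -0.187 (p 0.402 and 0.520, adjusted 0.446 and 0.578), and 0.153 without 2 arrays. Col11a1 with Col11a2 had r 0.066 and rho -0.002 (p 0.821 and 1.00, adjusted 0.821 and 1.00), and -0.205 without 2 arrays. On values centred within each slide, 7 of the 8 called pairs kept an adjusted p of r under 0.05, all but Col4a1 with Col4a2. By rho, Col5a1 with Col5a3 lost its call there as well (adjusted permutation p 0.0633). Correlated arrays share slide, labelling and the scaling of each array.

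**Figure D4:**
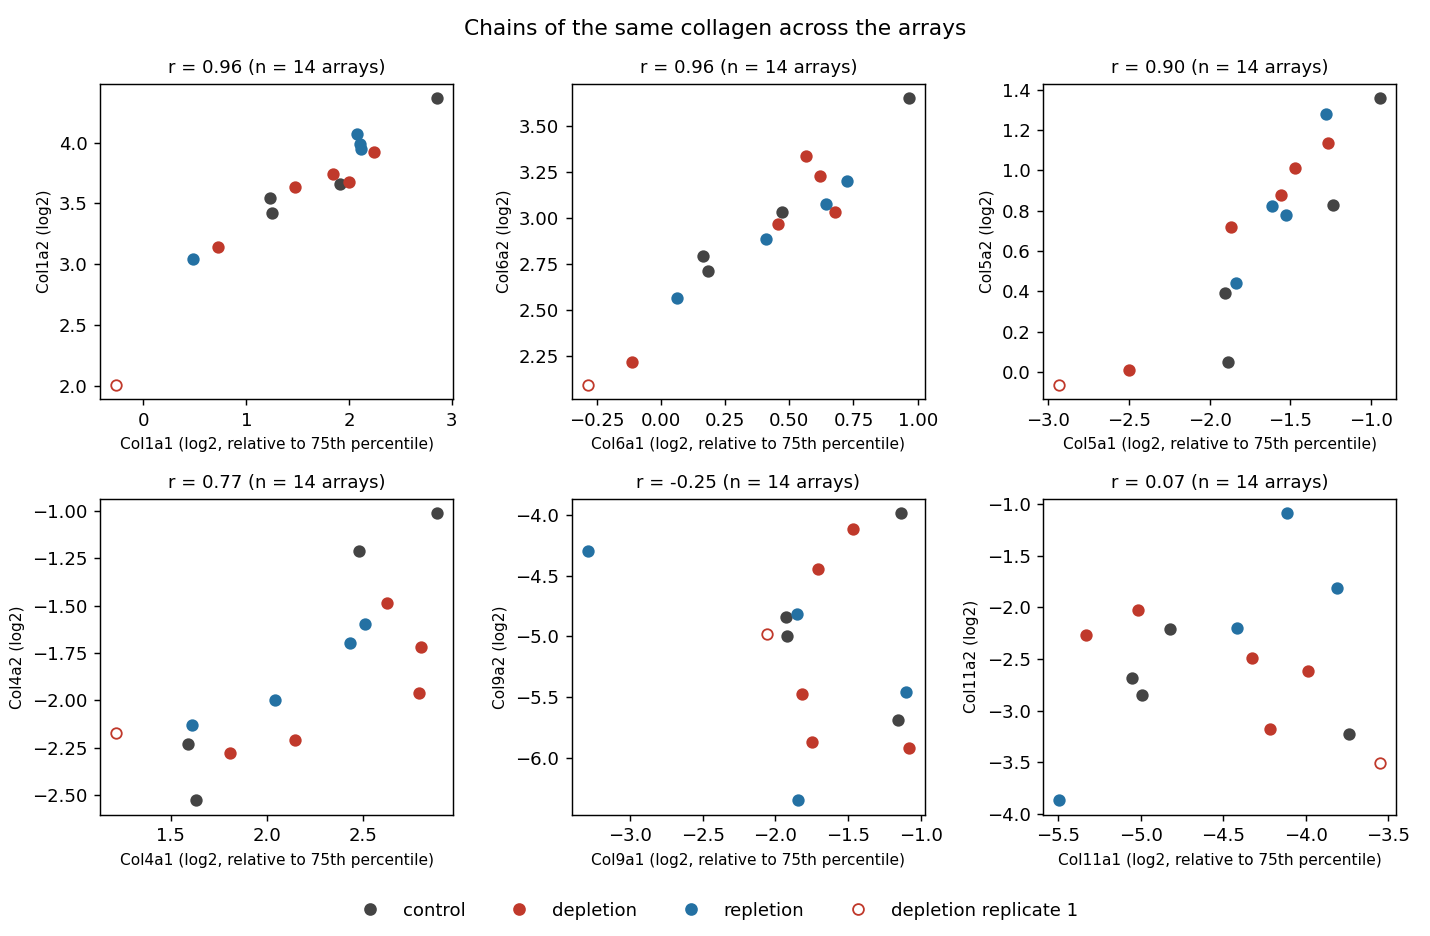
Each point is 1 of 14 arrays, coloured by diet, with the log2 level of the first chain on the horizontal axis and of its partner on the vertical axis, both relative to the array's 75th percentile. Points lie along a line for Col1a1 with Col1a2 (r 0.961) and Col6a1 with Col6a2 (r 0.963) and scatter for Col9a1 with Col9a2 (r -0.251) and Col11a1 with Col11a2 (r 0.066).

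The slide gave calls among the members where the diet gave none. In a test of slide with diet held constant, 9 of 53 members (17.0%) passed an adjusted p of 0.05 in limma's F test, against 28.1% of all probes. The diet F test called 0 members and 0% of all probes, with 1 member (Mmp9, p 0.0284) and 3.1% of all probes at an unadjusted p under 0.05. Col2a1, the cartilage collagen, averaged -1.31 on slide 2 and -2.14 on slide 3 and between -4.04 and -3.88 on slides 1, 4 and 5. Col19a1, a fibril-associated chain, averaged -1.70 on slide 2 and between -0.38 and 0.16 on the others. Col26a1 ranged from -5.89 on slide 5 to -2.87 on slide 2. The other 6 were Mmp9, Col17a1, Col9a2, Col6a4, Col4a6 and Col6a6. What differed between the slides was not tested, and each slide held between 2 and 4 arrays.

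**Figure D5:**
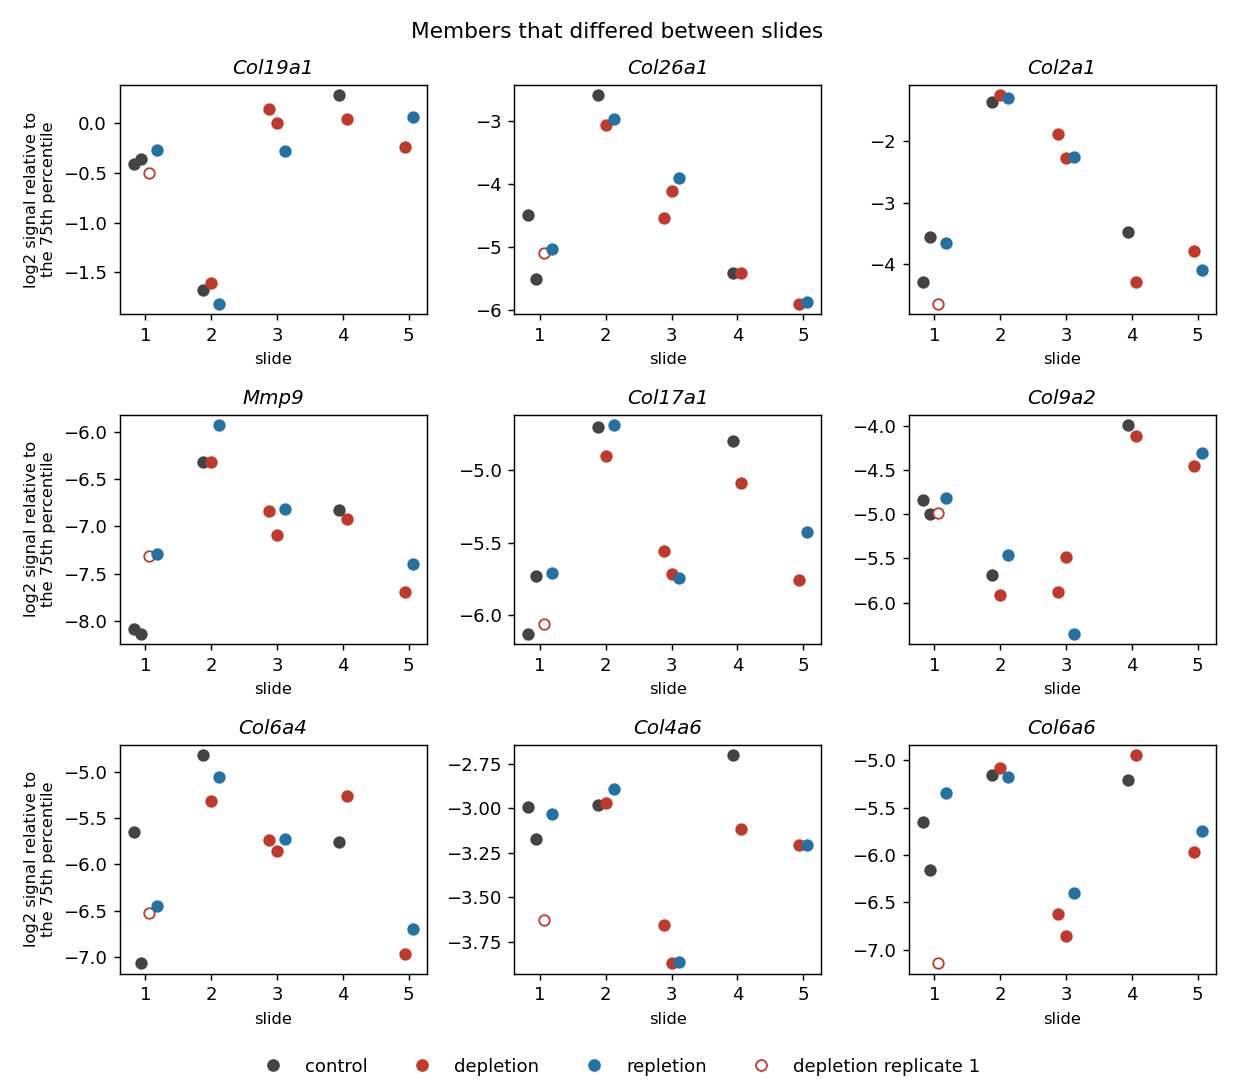
Each panel is 1 of the 9 members that differed between slides, with the slide on the horizontal axis, the log2 level relative to the array's 75th percentile on the vertical axis and 1 point per array coloured by diet. Arrays of different diets on 1 slide sit together for Col2a1, Col19a1 and Col26a1, and slide 2 stands apart in each.

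Genes outside the members that make, sense or remodel the matrix gave no call either, by limma's adjusted p. Of 21 measured genes of collagen processing, 13 were above 0 in depletion against control with a median of 0.02. The smallest p was that of Loxl4, a lysyl oxidase relative, at 0.59 ± 0.30, followed by P4ha1, a subunit of the prolyl hydroxylase that stabilises the helix, at -0.52 ± 0.28. Of 17 genes of the TGF-beta signal, the main inducer of fibrillar collagen in fibroblasts, 9 were above 0 in the same comparison, with a median of 0.01. Of 16 other proteases and inhibitors, 11 were above 0. Plat, the tissue plasminogen activator, was at 0.49 ± 0.12 in depletion (unadjusted p 0.00338, adjusted 0.832) and 0.42 ± 0.14 in repletion against control (unadjusted p 0.0118, adjusted 1.00). Reck, a membrane inhibitor of metalloproteinases, was at 0.44 ± 0.16 in repletion against control. Of 9 collagen receptors, Itga10 was at 0.47 ± 0.14 in repletion against depletion (unadjusted p 0.0109, adjusted 0.933). The 12 elastic fibre genes had 11 differences above 0 in repletion against depletion, with a median of 0.10, and the 9 laminins and partners had 6, with a median of 0.01, where 58.9% of all probes were above 0.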

How the data were processed

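Total RNA of 14 plantaris muscles was labelled with Cy3 and hybridised to 1-colour Agilent rat arrays. The deposited scanner files hold spot intensity, background-subtracted within each array, per the file headers, with no scaling between arrays. The authors also deposited 1 log2 value per probe, used only as an alternative; the tools named in the submitters' processing notes are Agilent Feature Extraction 11.5.1.1 and limma. Here, spots flagged as outliers by the scanner software (0.669% to 1.05%) were dropped, replicate spots averaged, and the 75th percentile of each array subtracted on the log2 scale. Of 30367 probes, 26391 were well above background on at least 4 arrays with at least 2 values per group. A model with diet and slide was fitted to all 14 arrays in limma 3.58.1 (R 4.3.3), with Benjamini-Hochberg adjustment over all probes, and was tested on simulated data with planted differences. Correlations used 100000 permutations (scipy 1.17.1); tables used Python 3.11.15, numpy 2.4.6 and pandas 2.3.3, figures matplotlib 3.10.9. Replicates are labelled biological, 1 rat each. Members named with values are the 6 with the smallest p in each comparison and 21 further chosen matrix genes. Members, lists and alternatives were chosen with earlier results of these data known. Slides were read from the file headers. The number of arrays limits the precision. Gene names and coordinates of probes are those of the array files (rn4); promoter sequences are from RefSeq (GRCr8). Some items withheld for evaluation are not reported here.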

Additional observations from a re-analysis of the deposited data

Results flagged for a closer look

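Within each diet group, an array was singled out where its gap to the nearest other array was larger than Dixon's 95% limit allows. Of 159 groups of values (53 members in 3 diets), 10 did so, and chance gives about 1 in 20. Repletion replicate 4 lay below its group in Col1a1 at 0.49 (nearest 2.08), in Col1a2 at 3.04 (nearest 3.95) and in Col12a1 at -1.54 (nearest -0.43). Its tendon markers summed to 18.1, the lowest of the 14 arrays, and its fibroblast markers to 40.8, where all arrays ran from 23.2 to 51.7. The part of these cells was not tested. Depletion replicate 1 lay below its group in Col15a1 at -0.98 (nearest 1.06) and above it in Col16a1 at 0.93 (nearest -0.30). Depletion replicate 3 lay below its group in Postn at -4.31 (nearest -2.76) and in Mmp14 at -0.56 (nearest 0.14). Depletion replicate 2, on slide 2, lay below its group in Col19a1 at -1.61 (nearest -0.50), and the other 2 arrays of slide 2 were as low. Repletion replicate 1 lay below its group in Col25a1 at -9.93 (nearest -7.57). Control replicate 1 lay above its group in Sparc at 4.94 (nearest 4.18).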

How the results depend on the processing

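No member and no probe passed adjusted p 0.05 in limma under any alternative, in any comparison of diets (0 members, 0 probes, leaving out single arrays included). The median difference of the members ranged over single arrays left out from -0.24 to 0.10 in depletion against control, from 0.04 to 0.20 in repletion against depletion and from -0.03 to 0.30 in repletion against control. The normexp correction moved the median of all probes from -0.02 to -0.14 in depletion against control and from 0.01 to -0.12 in repletion against control, and relative to it the members' medians were -0.03 and 0.01. Replicate numbers were not used to pair the rats in the main fit. Same-numbered arrays correlated between 0.23 and 0.72 on the same slide and between -0.49 and 0.39 on different slides. Because these values varied with the slide, they cannot decide whether the numbers mark pairs. With the replicate block in place of slide, the members' median was -0.17, 0.21 and -0.03 in the order above, with 0 called.

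Leaving out slide 1 or 2, and the correlations without depletion replicate 1 (the same 8 pairs called), were chosen after seeing the data. Differences that turned sign under other settings, for causes not tested, were these. With normexp, Mmp9 was -0.22 (depletion against control), -0.018 (repletion against depletion) and -0.24 (repletion against control), and Col4a4 -0.14. Without slide 1, depletion against control gave Mmp9 -0.011, Col1a1 0.37, Col1a2 0.22 and Col3a1 0.37; repletion against depletion gave Col1a1 -0.030; repletion against control gave Col7a1 -0.31, Col1a1 0.34 and Col3a1 0.51. Without slide 2, Col1a2 was -0.12 in repletion against control. With depletion replicate 1 counted as repletion, repletion against depletion gave Col1a1 -0.32, Col1a2 -0.13 and Col3a1 -0.21, and repletion against control gave Col1a2 -0.31. In repletion against control, array weights gave Col1a1 0.10 and Col3a1 0.025, and only the groups compared gave Col1a1 0.10. Over single arrays left out, Col1a1, Col1a2 and Col3a1 ranged from -1.03 to 0.29, -0.74 to 0.18 and -0.94 to 0.12 in depletion against control. Col1a1 and Col3a1 ranged from -0.080 to 0.97 and from -0.0019 to 0.75 in repletion against depletion. In repletion against control the ranges were -0.48 to 0.40 (Col1a1), -0.33 to 0.34 (Col1a2), -0.43 to 0.34 (Col3a1) and -0.063 to 0.81 (Timp1).

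The slide test called 3 members with normexp (5.66%, all probes 8.0%), 6 with quantile normalization (11.3%, 25.2%), 7 with median centring (13.2%, 30.6%) and 6 with the authors' values (11.3%, 24.3%), against 9. The correlation of Col6a1 with Col6a3 was 0.386 with normexp (adjusted p 0.219), that of Col4a1 with Col4a2 was 0.755 (0.0618) centred within slides, and that of Col11a1 with Col11a2 was -0.0094 centred within slides. Dim members (Mmp9, Col13a1, Col25a1) were not well above background on several arrays, which limits their values.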
